A study of Homo sapiens and Mus musculus with 74 samples.

Results

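Mt1, Mt2 and Mt3 encode the metallothioneins of mouse brain and kidney, and they were followed here through RNA-seq, ribosome-protected fragments (RPFs, Ribo-seq) and disome-protected fragments (disome-seq) of wild-type (WT) and Rpl41 knockout (KO) mice. They are 3 of the 55174 genes of the mouse count table. The members were found by gene name in the GENCODE M21 annotation, and each is shown by the transcript that encodes its longest protein. The table lists 8 transcripts of these genes. Mt4, the remaining gene of the family, had no read outside of KO brain RNA-seq libraries 2 and 3, which held 1 each. The mice were of the C57BL/6J strain, KO mice carried a CRISPR-Cas9 deletion of the whole coding sequence of Rpl41 made in zygotes, and the mice used for these assays were males, with an age of 10 weeks given for Ribo-seq. RPL41 is the smallest ribosomal protein and sits between the ribosomal subunits. Each of 10 groups (WT or KO kidney and brain by RNA-seq and Ribo-seq, WT or KO kidney by disome-seq) had 3 libraries. The study calls the mouse Ribo-seq replicates biological, while the labels tie no library to an animal, and p-values measure the spread between the 3 libraries of a group. All libraries were made from bulk tissue, in which fewer cells of a type and less RNA per cell cannot be told apart.

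Metallothioneins are very small proteins rich in cysteine, whose sulfur atoms bind zinc and copper and also cadmium. Mt1 and Mt2 are made in most tissues, and their transcription rises with zinc and cadmium through the zinc sensor MTF1, and with glucocorticoids and inflammatory cytokines. Mt3 is best known from brain, where it was described as a growth inhibitory factor, and Mt4 from stratified squamous epithelium. Disomes are pairs of stacked ribosomes whose joint footprint is longer than that of 1 ribosome.

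In the annotation (GRCm38) the family lies head to tail on the plus strand of chromosome 8: Mt4 at 94137197 to 94139031, Mt3 at 94152607 to 94154146, Mt2 at 94172664 to 94173568 and Mt1 at 94179082 to 94180327. In the transcripts Mt1-201, Mt2-201 and Mt3-201 the reading frames encode proteins of 61, 61 and 68 residues, and much of each frame is cysteine codons. Each of these frames held 20 cysteine codons, which was 32.8% of the codons of Mt1 and of Mt2 and 29.4% of those of Mt3. The share of cysteine codons was lower in 99.77% of genes for Mt1 and Mt2 and in 99.65% for Mt3. Mt1 and Mt2 were identical at 79.2% of aligned coding bases, Mt1 and Mt3 at 65.7%, and Mt2 and Mt3 at 67.2%. The longest stretch shared by any pair of the 3 genes was 27 bases, so footprints can be told apart between the members over nearly all of their length. No 28-base window of a member occurred in another member, and 7 of the 484 windows of Mt2 occurred in Pip5k1a.

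The transcripts with the longest protein were Mt1-203 (132 residues, 633 bases), Mt2-202 (76 residues, 388 bases) and Mt3-203 (80 residues, 477 bases). They share most exons with Mt1-201, Mt2-201 and Mt3-201. In every group the reads of Mt1-203 came to 99.3 to 100.0% of those of Mt1-201, and the reads of Mt2-202 to 98.5 to 100.0% of those of Mt2-201 in RNA-seq and Ribo-seq. Mt3-203 held 58.3 to 64.6% of the reads of Mt3-201 in RNA-seq and in brain Ribo-seq, and 82.5 to 89.5% in kidney Ribo-seq. Gm45774, an antisense gene, overlaps Mt2, and whether the counting used strand was not given in the sources used here. Its mean level came to 66.2 to 112% of that of Mt2 by group, so reads of Mt2 and of Gm45774 cannot be told apart.

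The promoter windows, from 250 bases before to 50 bases after the transcript start, were searched on both strands for the core of the metal response element that MTF1 binds (TGCACNC or TGCGCNC). Mt2 held 5 matches, a number reached by 0.16% of 21931 promoters, and Mt1 held 3, a number reached by 2.33%. Mt3 and Mt4 held 1 match each, as 27.9% of promoters held at least 1. The core of the antioxidant response element (TGACNNNGC), present in 12.5% of promoters, had 1 match in Mt2. TATAAA, present in 12.7% of promoters, was matched in Mt4 alone among the family. Mt1-203, Mt2-202 and Mt3-203 begin further downstream, at 94179211, 94172860 and 94152746, beyond the 50 bases searched. Matches near those starts can therefore be missed, and a motif without a match here may still be present. A match is a run of letters and not a binding site. The map of matches shows 3 of the 5 matches of Mt2 upstream of the start, against 1 of 3 in Mt1.

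Rpl41 itself was read first as a check of the labels. WT kidney RNA-seq libraries held 3695 to 7502 reads of Rpl41 and KO libraries 3 to 8, and brain libraries held 8981 to 12199 against 6 to 12. Footprints were 41 to 85 against 0 to 2 in kidney and 37 to 76 against 0 to 4 in brain, and disomes 71 to 154 against 0 to 2. The labelled tissues carried their defining markers. Neuron markers (7 genes) summed to 1555 to 1691 CPM (read count scaled to a library total of 1000000) in WT brain RNA-seq and to 0.332 to 0.495 CPM in WT kidney, and proximal tubule markers (7 genes) to 3687 to 3817 CPM in WT kidney and 14.4 to 15.5 CPM in WT brain. Total counts ran from 44998381 to 123745890 in RNA-seq, from 9498663 to 42452425 in Ribo-seq and from 1187636 to 3018963 in disome-seq.

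The first comparison asked where each metallothionein was expressed in WT mice. All 3 were lower in kidney than in brain, in mRNA and in footprints, and the gap widened from Mt1 through Mt2 to Mt3. Mt1 mRNA stood at 37.9, 86.25 and 42.65 CPM in WT kidney libraries 1 to 3 and at 110, 181 and 102 CPM in WT brain. Every brain library lay above every kidney library, and the brain mean was 2.36-fold the kidney mean. The fitted log2 difference of kidney over brain was -0.98 (standard error 0.37, adjusted p = 0.0376, quasi-likelihood test of edgeR, adjusted over every transcript tested by the method of Benjamini and Hochberg). Mt2 mRNA stood at 10.4, 25.5 and 14.6 CPM in kidney and at 54.0, 127 and 64.2 CPM in brain. The groups did not overlap, with a ratio of means of 4.85 and a log2 difference of -2.02 (standard error 0.41, edgeR adjusted p = 0.00157). Mt3 mRNA was nearly confined to brain, with 77.3, 98.0 and 53.9 CPM there against 0.165, 0.644 and 0.244 CPM in kidney, where the libraries held 8 to 33 reads. Its ratio of means was 218, and its log2 difference was -7.49 (standard error 0.48, edgeR adjusted p = 4.0e-07).

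These 3 calls are read against a background in which 64.1% of all transcripts tested differed between the tissues in RNA-seq, 31726 of them lower in kidney. The call for Mt1 mRNA was the least secure. It was lost without WT brain library 2 (log2 difference -0.68, edgeR adjusted p = 0.131), without WT kidney library 1 (-0.77, 0.142) or without WT kidney library 3 (-0.78, 0.0566). Per kilobase of transcript, which is the scale for comparing genes, WT brain mRNA stood at 211 ± 102 (SD, n = 3) for Mt2, 208 ± 68.6 for Mt1 and 160 ± 46.3 CPM per kb for Mt3. The libraries of the 3 genes overlapped, although Mt3 was below Mt1 in each of the 3 libraries. The order in brain also turned with the transcript, since Mt1-201, Mt3-201 and Mt2-201 had 239, 236 and 160 CPM per kb. In WT kidney the order was Mt1 at 87.8 ± 42.1, Mt2 at 43.5 ± 20.0 and Mt3 at 0.736 ± 0.538 CPM per kb (SD, n = 3), and Mt1 was above Mt2 in each library, at 59.9, 136 and 67.4 against 26.9, 65.8 and 37.7 CPM per kb. The ranges of Mt1 and Mt2 overlapped between libraries, and every library of Mt3 lay below both. By level of mRNA, Mt1, Mt2 and Mt3 lay above 99.24%, 98.26% and 98.08% of 34985 genes detected in WT brain, and above 96.12%, 85.14% and 43.11% of 26701 genes detected in WT kidney.

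Footprints followed the same order of tissues. Mt1 had 27.3, 42.0 and 32.9 CPM in WT kidney Ribo-seq and 51.5, 82.3 and 62.0 CPM in WT brain, a log2 difference of -0.84 (standard error 0.20, edgeR adjusted p = 0.00155). Mt2 had 8.92, 14.9 and 13.2 CPM against 31.4, 59.2 and 42.6 CPM, a log2 difference of -1.76 (standard error 0.24, edgeR adjusted p = 1.3e-05). Mt3 had 0.734, 1.21 and 0.737 CPM, from 10 to 19 reads, against 34.1, 44.0 and 34.9 CPM, a log2 difference of -5.33 (standard error 0.21, edgeR adjusted p = 3.3e-11). None of the 3 pairs of groups overlapped, and 70.9% of all transcripts tested differed between tissues in Ribo-seq.

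Footprints relative to mRNA were compared between the tissues as the assay by tissue term. Mt3 gave 2.33 (standard error 0.58, edgeR adjusted p = 0.0099), so its few kidney reads held more footprints per mRNA than its brain reads. The same term for Mt3-201 was 1.93 (edgeR adjusted p = 0.037), and a filter of at least 10 counts in every library removed Mt3 from this test. Mt1 gave 0.31 (0.46) and Mt2 0.44 (0.53), with edgeR adjusted p of 0.688 and 0.609, and approximate 95% intervals from -0.59 to 1.21 and from -0.59 to 1.47. Of all transcripts, 19.8% passed this test, 13394 of them higher in kidney, as Mt3 was, and 5791 lower. Neuron markers moved beside Mt3: their median tissue term was 2.64, with 2 of 7 called (Gad2 and Slc30a3), and in WT kidney their summed level was 0.332 to 0.495 CPM in RNA-seq and 0.808 to 1.35 CPM in Ribo-seq. Blood markers had a median term of 2.76, with 3 of 5 called (Hba-a2, Hba-a1 and Hbb-bt), and summed to 183 to 293 CPM in kidney and 772 to 2394 CPM in brain RNA-seq, and to 816 to 988 and 646 to 1793 CPM in Ribo-seq. Astrocyte markers were mixed. Aldh1l1, an astrocyte marker, had a term of -0.92 (standard error 0.20). The tissue difference went from -9.12 in RNA-seq to -7.53 in Ribo-seq for S100b. It went from -8.80 to -9.18 for Gfap and from -8.25 to -8.56 for Slc1a2. The part of neuronal or blood RNA in the value of Mt3 was not tested.

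**Figure D1:**
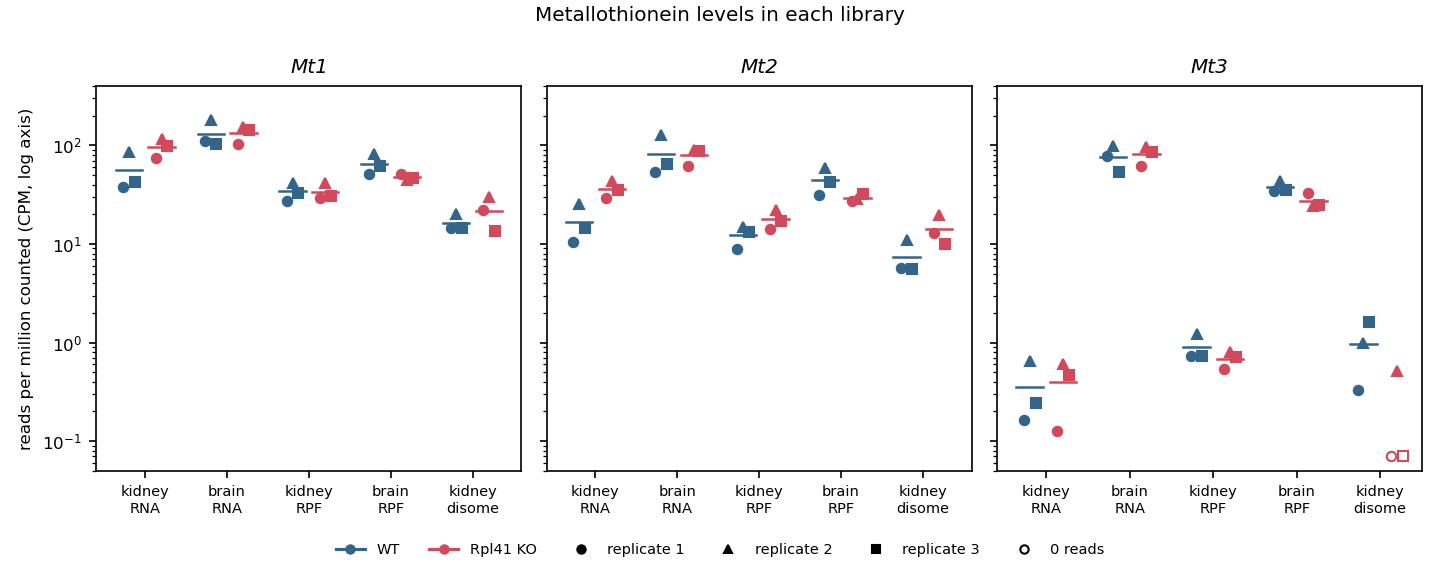
Level of Mt1, Mt2 and Mt3 in every library, in CPM on a log axis, with WT in blue and Rpl41 KO in red, a marker shape for each replicate number and a bar at the group mean of 3 libraries. Open symbols at the foot of the Mt3 panel are KO disome libraries with 0 reads; kidney Mt3 stays at or below 1.60 CPM, and replicate 2 is the highest library of most groups.

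The response to loss of RPL41 was read first in kidney mRNA. Mt1 and Mt2 were higher on average in KO kidney, but neither passed the test over all transcripts. Mt2 stood at 10.4, 25.5 and 14.6 CPM in WT and at 29.5, 43.1 and 35.2 CPM in KO libraries, so the lowest KO library lay above the highest WT library. How many of all transcripts separate like this was not counted. For Mt2 the fit gave the following. The ratio of means was 2.13, and the log2 fold change was 1.26 (standard error 0.34, edgeR adjusted p = 0.292). Mt1 stood at 37.9, 86.25 and 42.65 CPM in WT against 74.5, 115 and 99.3 CPM in KO. WT library 2 lay above KO library 1, so the groups overlapped, with a ratio of means of 1.73 and a log2 fold change of 0.96 (standard error 0.35, edgeR adjusted p = 0.292). Mt3 rested on 7 to 28 reads in KO and 8 to 33 in WT kidney, and its log2 fold change was 0.34 (approximate 95% interval -1.19 to 1.88).

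In this comparison 0.00992% of transcripts were called. None of the 3 members was called by edgeR, 2 of 3 had an unadjusted p under 0.05, as 16.8% of all transcripts did, and DESeq2 called 1, Mt2, with an adjusted p of 0.0475. The result turned on KO library 1. Without it, edgeR called Mt1 (log2 fold change 1.16, adjusted p = 0.0446) and Mt2 (1.43, adjusted p = 0.0253), and the calls among all transcripts went from 7 to 12466. The KO libraries that remain, 2 and 3, stood apart in signs of RNA quality. Mitochondrial rRNA took 1.76% and 1.67% of their counts, against 0.754% in KO library 1 and 0.436 to 0.962% in WT, and 83287 and 86071 transcripts had a read, against 92636 and 91222 to 93091. The part of RNA quality in the values of Mt1 and Mt2 was not tested. Over all 14 alternatives the log2 fold change of Mt2 ran from 1.00 to 1.72 and that of Mt1 from 0.73 to 1.46, with adjusted p from 0.0253 to 0.645 and from 0.0446 to 0.645. Without TMM scaling the median log2 fold change of all genes moved from 0.12 to -0.04, so both genes lay above that median under either scaling. Among 13888 coding genes, Mt1 lay above 97.0% and Mt2 above 98.8%. Genes whose longest protein has 50 to 80 residues, a class that holds Mt2 and Mt3 but Mt1 only by its 61 residue protein of Mt1-201, had, without the metallothioneins, a median of 0.38 over 154 genes.

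In brain mRNA the mean levels of the members in KO were 0.974 to 1.07 times those in WT. Mt1 stood at 110, 181 and 102 CPM in WT and at 104, 153 and 142 CPM in KO. Mt2 stood at 54.0, 127 and 64.2 CPM against 62.4, 89.75 and 87.1 CPM, and Mt3 at 77.3, 98.0 and 53.9 CPM against 62.35, 96.5 and 85.6 CPM. All 3 pairs of groups overlapped. Log2 fold changes were 0.10 (approximate 95% interval -0.45 to 0.65), 0.05 (-0.62 to 0.71) and 0.17 (-0.38 to 0.73), with edgeR adjusted p from 0.906 to 0.977. The direction of each of the 3 turned when single libraries were left out. None of the 3 had an unadjusted p under 0.05, none was called by DESeq2, and 0.0134% of all transcripts were called. The kidney response minus the brain response, tested as the tissue by genotype term, was 0.81 (0.50) for Mt1, 1.16 (0.54) for Mt2 and 0.07 (0.73) for Mt3, with edgeR adjusted p of 0.605, 0.585 and 1, and 0.00108% of all transcripts passed. By DESeq2 none of the 3 passed this term, and none had an unadjusted p under 0.05 in edgeR.

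Footprints of Mt2 averaged higher in KO kidney than in WT, and those of Mt1 had nearly equal means. Mt2 had 8.92, 14.9 and 13.2 CPM in WT and 14.1, 22.3 and 17.0 CPM in KO libraries. WT library 2 lay above KO library 1, the ratio of means was 1.45, and the log2 fold change was 0.64 (standard error 0.19, edgeR adjusted p = 0.0533). Mt1 had 27.3, 42.0 and 32.9 CPM in WT and 29.3, 41.55 and 30.95 CPM in KO. The means differed by a ratio of 0.996 and the log2 fold change was 0.07 (interval -0.25 to 0.39). Mt3, at 0.734, 1.21 and 0.737 CPM against 0.544, 0.801 and 0.711 CPM, gave -0.21 (interval -0.80 to 0.37).

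No member was called by edgeR in kidney Ribo-seq, where 7.76% of all transcripts were, and 1 of 3 had an unadjusted p under 0.05, against 25.3% of all transcripts. Mt2 sat at the threshold. It was called by DESeq2 (adjusted p = 0.0449), and by edgeR without WT library 2 (log2 fold change 0.82, adjusted p = 0.0419) or without WT library 3 (0.72, adjusted p = 0.0461). Over 14 alternatives its log2 fold change ran from 0.40 to 0.82 and its adjusted p from 2.1e-05 to 0.226, with 5 calls. Among genes of 50 to 80 residues, 1 rose and 19 fell of 138 tested, with a median of -0.30, and Mt2 lay above 98.6% and Mt1 above 92.0% of them. WT library 1 stood apart in pancreatic enzymes, which summed to 388 CPM there, to 15.2 and 45.9 CPM in the other WT libraries and to 7.52 to 10.5 CPM in KO. Without that library the log2 fold change of Mt2 was 0.40. The part of pancreatic RNA in this comparison was not tested.

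In brain Ribo-seq all 3 members were lower on average in KO. Mt1 had 51.5, 82.3 and 62.0 CPM in WT and 51.3, 44.3 and 46.4 CPM in KO. Mt3 had 34.1, 44.0 and 34.9 CPM against 32.5, 24.1 and 24.8 CPM. Mt2 had 31.4, 59.2 and 42.6 CPM against 27.6, 28.5 and 32.0 CPM. Every KO library lay below every WT library for Mt1 and Mt3, by a margin of under 1 CPM for Mt1, and WT library 1 and KO library 3 overlapped for Mt2. The share of all transcripts that separate in this way was not counted. Ratios of means were 0.725, 0.720 and 0.662 for Mt1, Mt3 and Mt2. Log2 fold changes were -0.44 (0.16) for Mt1, -0.57 (0.19) for Mt2 and -0.45 (0.15) for Mt3, with edgeR adjusted p of 0.303, 0.276 and 0.267. No member was called by edgeR or by DESeq2, and 0.0345% of all transcripts were called, while all 3 had an unadjusted p under 0.05, as 12.6% of all transcripts did. With every transcript of at least 1 count kept, edgeR called Mt2 (adjusted p = 0.0247).

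The 3 members lay above only 4.5 to 7.4% of 14454 coding genes by this fold change, and genes of 50 to 80 residues had a median of -0.22. WT brain library 2 was the highest library for each member. It also held the most blood RNA, with hemoglobin and Alas2 reads at 1793 CPM against 646 and 689 CPM in the other WT libraries and 340 to 441 CPM in KO. Without this library the log2 fold changes were -0.22 for Mt1, -0.29 for Mt2 and -0.31 for Mt3. WT brain library 1 held 151 CPM of pancreatic enzymes, against 1.59 and 3.05 CPM in the other WT libraries and 1.06 to 4.21 CPM in KO, and without it the log2 fold changes were -0.60, -0.78 and -0.53. Blood markers had a median log2 fold change of -1.34 in brain Ribo-seq (5 of 5 with an unadjusted p under 0.05, 0 called by edgeR, 0 called by DESeq2), and the part of blood or pancreatic RNA in the values of the metallothioneins was not tested.

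The difference between the tissues in the footprint response was largest for Mt2, whose log2 fold changes of 0.64 in kidney and -0.57 in brain had opposite signs. The tissue by genotype term was 1.19 for Mt2 (standard error 0.30, edgeR adjusted p = 0.249), 0.50 (0.25) for Mt1 and 0.24 (0.33) for Mt3. None passed, and 0.0767% of all transcripts did. DESeq2 called none of the 3, and 1 of 3 had an unadjusted p under 0.05. For Mt2 the adjusted p ran from 0.00108 to 0.57 over 20 alternatives, with 2 calls.

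**Figure D2:**
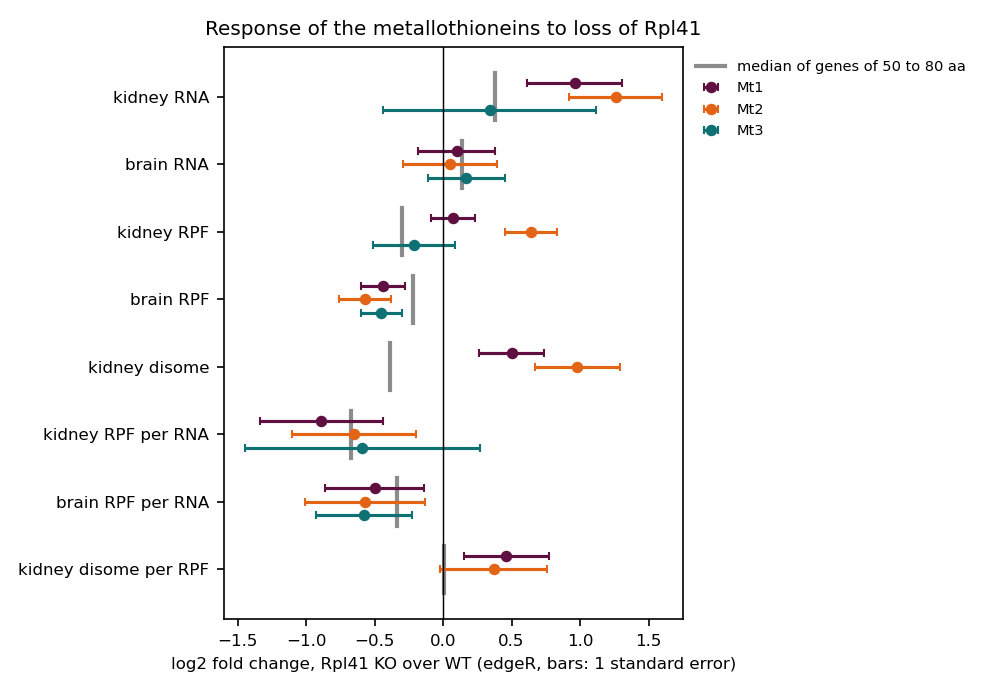
Log2 fold change of Mt1, Mt2 and Mt3 in Rpl41 KO over WT, from edgeR, for each assay and for RPFs per RNA and disomes per RPF, with bars of 1 standard error and a grey mark at the median of genes of 50 to 80 amino acids. Kidney Mt2 lies to the right of 0 in RNA, RPFs and disomes (1.26, 0.64 and 0.98), the brain RPF values lie between -0.57 and -0.44, and Mt3 was not tested in disomes.

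Translation efficiency (TE) is the level of RPFs relative to mRNA. Its log2 change in KO against WT was below 0 for every member in both tissues, with no call. In kidney the assay by genotype term was -0.89 (standard error 0.45) for Mt1, -0.65 (0.45) for Mt2 and -0.59 (0.86) for Mt3, with edgeR adjusted p of 0.298, 0.451 and 0.75. In brain it was -0.50 (0.36), -0.57 (0.44) and -0.58 (0.35), each with an adjusted p of 0.895. No transcript passed in either tissue (0.0%). The paper tested TE with RiboDiff, a different method from the edgeR term used here, and reports many significantly changed transcripts in each tissue. In kidney 16938 transcripts had an unadjusted p under 0.05 and DESeq2 called 4129, and in brain these counts were 4677 and 18. Of the 3 members none had an unadjusted p under 0.05 and none was called by DESeq2 in either tissue. All genes had a median of -0.14 in kidney and -0.10 in brain, and genes of 50 to 80 residues -0.67 and -0.34. Mt1 and Mt2 lay above 27.9% and 50.9% of this class in kidney, and the members above 17.9 to 27.2% of it in brain.

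The same can be seen as a level. In WT kidney the log2 ratio of footprint CPM to the mean mRNA CPM of the group was -1.03, -0.405 and -0.756 for Mt1 and -0.919, -0.182 and -0.355 for Mt2. In KO kidney these were -1.72, -1.21 and -1.64 for Mt1 and -1.35, -0.687 and -1.08 for Mt2. All KO libraries of Mt1 lay below its WT libraries, and those of Mt2 overlapped on this scale. Each value divides by the mean mRNA of the group, so the spread between mRNA libraries is left out of it. Taken alone, the footprints and the mRNA of Mt1 each overlapped between the genotypes. Same-numbered kidney libraries deviated together in both assays, and over the mRNA of the same number Mt2 stood at -0.228, -0.779 and -0.151 in WT and at -1.06, -0.950 and -1.05 in KO. On that scale Mt1 stood at -0.474, -1.04 and -0.373 in WT and at -1.35, -1.47 and -1.68 in KO. Neither gene overlapped between the genotypes when paired, but how many other genes separate in this way was not counted. In the unpaired test of kidney TE 18.9% of all transcripts had an unadjusted p under 0.05. With the replicate number as a block the TE terms were -0.97 for Mt1 and -0.73 for Mt2, with edgeR adjusted p of 0.213 and 0.219. Brain means went from -1.04 ± 0.341 to -1.49 ± 0.108 for Mt1, from -0.931 ± 0.458 to -1.45 ± 0.113 for Mt2 and from -1.03 ± 0.204 to -1.60 ± 0.239 for Mt3 (SD, n = 3, WT to KO). The WT means of all 3 members in brain fell at or near the median of 118 genes of 50 to 80 residues, here with Mt2 and Mt3 counted among them (-1.04), well below the median of all 12645 genes (-0.108). In KO brain this class stood at -1.42 and all genes at -0.172. In kidney the class, with Mt2 counted, went from -0.957 in WT to -1.62 in KO, while all genes stood at -0.186 and -0.185.

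**Figure D3:**
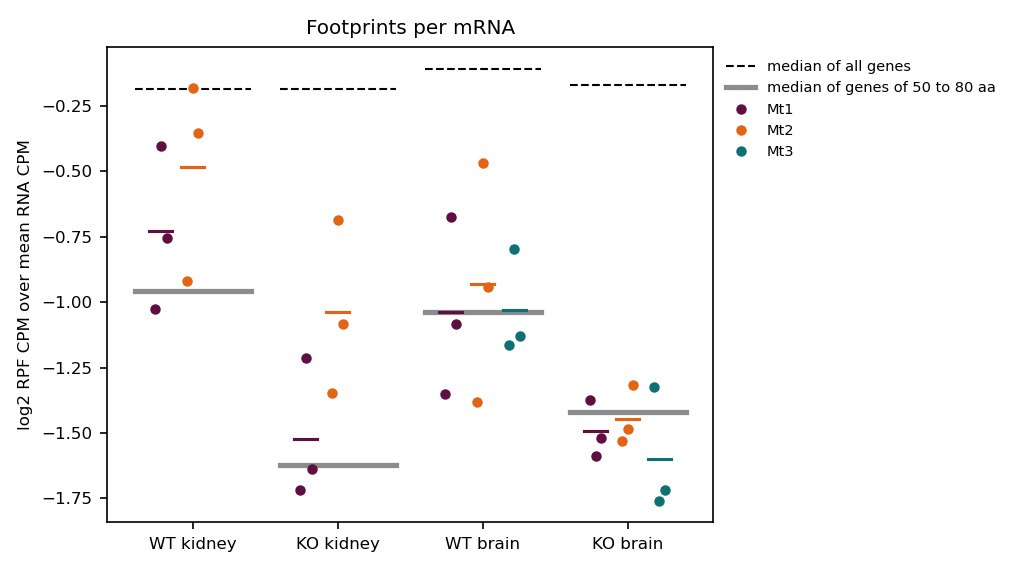
Log2 of RPF CPM over the group's mean RNA-seq CPM for each library (points) and group mean (short bars), with the median of genes of 50 to 80 amino acids in grey and of all genes as a dashed line. The means of Mt1 and Mt2 and the grey median lie lower in KO than in WT, and kidney Mt3 had too few reads for this ratio.

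Disome footprints of Mt1 and Mt2 were counted in kidney at 7 to 61 reads a library. Mt2 had 5.64, 10.9 and 5.60 CPM in WT (17, 33 and 7 reads) and 12.9, 19.5 and 10.1 CPM in KO (30, 38 and 12 reads), with an overlap of WT library 2 and KO library 3. Its ratio of means was 1.92 and its log2 fold change 0.98 (standard error 0.31, edgeR adjusted p = 0.201). Mt1 had 14.6, 20.2 and 14.4 CPM in WT and 21.9, 29.8 and 13.5 CPM in KO, and its fitted log2 change was 0.50 (standard error 0.24, edgeR adjusted p = 0.464). Mt3 had 0 to 3 reads in every disome library, at or under a floor of 3 counts, and was not tested.

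No member was called in disomes by edgeR, where 0.222% of transcripts were. Mt2 had an unadjusted p under 0.05, and DESeq2 gave no adjusted p to either. Same-numbered WT and KO disome libraries deviated together, and with the replicate number as a block the calls among all transcripts went from 77 to 241, while Mt2 had an adjusted p of 0.0759. Mt1 and Mt2 lay above all of the 71 genes of 50 to 80 residues tested, whose median was -0.39, and above 93.2% and 99.5% of coding genes. Disomes relative to monosomes changed by 0.46 (0.31) for Mt1 and 0.37 (0.39) for Mt2, with edgeR adjusted p of 0.912 and 0.954. No transcript passed this test (0.0%), 3907 had an unadjusted p under 0.05, none of them a member, DESeq2 called 10 and no member, and pairing the assays by replicate number gave 209 calls. In WT kidney the log2 ratio of Mt1 disomes to monosomes was -1.22, -0.754 and -1.24, and its mean lay above 8.2% of 61 genes of 50 to 80 residues.

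The other genes of metal handling were described by lists. In KO kidney Ribo-seq, 0 of 7 zinc exporters (ZnT) tested were higher and 1 was lower, with a list median of 0.01 beside -0.04 for all genes. It was Slc30a9 (log2 fold change -0.46, standard error 0.12). Among 11 zinc importers (ZIP), Slc39a6 was higher (0.64, 0.18) and Slc39a3 lower (-0.55, 0.14), with a list median of -0.06. Of 12 copper handling genes 2 were higher, the copper pump Atp7a (0.68, 0.12) and the copper oxidase Cp (0.49, 0.12), and the copper chaperone Atox1 was lower (-0.46, 0.12), with a list median of -0.15. These calls, by edgeR with adjusted p from 0.00912 to 0.0483, stood against 7.76% of all transcripts called. All kept their direction under the 13 alternatives run for each, and Slc39a6 and Cp were not called with library size alone. With 1 library left out Atp7a stayed called in 5 of 6 fits, Cp in 2 of 6, and Slc30a9, Slc39a6, Slc39a3 and Atox1 in 1 of 6.

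Regulators and co-regulated genes of the metallothioneins gave few calls. Mtf1, which encodes the zinc sensor, had log2 fold changes of 0.68 (standard error 0.27, edgeR adjusted p = 0.292) in kidney RNA and -0.01 (0.16) in kidney Ribo-seq. In brain it had 0.24 (0.15) in RNA and -0.25 (0.16) in Ribo-seq. No gene of the metal-responsive transcription list (Mtf1, Mtf2, Sp1) was called in KO by edgeR or DESeq2, and in kidney RNA 2 of 3 had an unadjusted p under 0.05. In kidney Ribo-seq, where 7.76% of all transcripts were called, 1 of 12 glucocorticoid-responsive genes was higher, the phosphatase Dusp1 (0.48, 0.13). There, 2 of 12 NRF2 targets were lower, the glutathione transferase Gsta3 (-0.57, 0.11) and the sulfiredoxin Srxn1 (-0.55, 0.15). Of 9 interleukin 6 and acute-phase genes Stat3 was higher (0.44, 0.10) and Fgb lower (-1.94, 0.55). List medians were 0.22, -0.15 and 0.13 for these 3 lists. With 1 library left out Gsta3 stayed called in 4 of 6 fits, Stat3 in 3, Dusp1 in 2, and Srxn1 and Fgb in 1, and Dusp1 and Stat3 were not called with library size alone. In the other comparisons of KO with WT no gene of the zinc, copper, metal-responsive, glucocorticoid, NRF2 or interleukin 6 lists was called by edgeR.

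Cell type markers were counted the same way in KO kidney Ribo-seq, beside 7.76% of all transcripts called. Lrp2 and Cubn were higher among 7 proximal tubule markers, of which 6 had a log2 fold change above 0 (list median 0.32). Slc12a1 was higher among 6 other nephron markers, of which only 3 lay above 0 (list median 0.02). All 6 pancreatic enzymes tested were lower, led by Amy2a5 (log2 fold change -5.61, standard error 1.17), Prss2 (-5.49, 1.12), Ctrb1 (-5.47, 1.14) and Try4 (-5.21, 1.14). With 1 library left out Slc12a1 stayed called in 5 of 6 fits, Cubn in 2, Lrp2 in 1 and these 4 enzymes in 3. No astrocyte, choroid plexus or blood marker was called by edgeR, DESeq2 called 1 astrocyte marker, and no neuron marker was tested. In kidney disomes the podocyte gene Nphs1 was lower (-2.44, 0.51), while 3 of the 5 other nephron markers tested lay above 0 (list median 0.14). No other listed marker was called by edgeR in a comparison of KO with WT. Summed over the list in kidney Ribo-seq, proximal tubule markers stood at 3945 to 4582 CPM in WT and at 5320 to 5575 CPM in KO. Other nephron markers stood at 1202 to 1430 CPM in WT and at 1643 to 1761 CPM in KO there. In kidney RNA-seq neither list rose, and the sum of the other nephron list was lower in KO. Proximal tubule markers summed to 3687 to 3817 CPM in WT and 3747 to 3817 CPM in KO. Other nephron markers summed to 1484 to 1831 CPM in WT and 1153 to 1405 CPM in KO. Of these 6 genes DESeq2 called 2 in kidney RNA-seq, beside 540 of all transcripts.

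Between the WT tissues the lists of zinc transporters and of metal-responsive regulators were split, and most other lists lay mainly or wholly to 1 side. In RNA-seq 64.1% of all transcripts tested were called, 25126 higher and 31726 lower in kidney, and the counts below stand beside that share. There 5 zinc exporters were higher in kidney and 3 lower of 9 tested, among them Slc30a2 at 4.78 (0.23) and Slc30a3, which loads synaptic vesicles with zinc, at -10.94 (0.41). Of 14 zinc importers 7 were higher and 5 lower, with Slc39a5 at 5.04 (0.23) and Slc39a12 at -8.80 (0.52). Of 12 copper genes 8 were higher in kidney and 0 lower, led by Ccs (3.45, 0.17), the chaperone that loads copper onto SOD1, and Slc31a1 (3.22, 0.17), a copper importer. Sp1 was higher and Mtf2 lower among 3 metal-responsive regulators. Glucocorticoid-responsive genes had 8 higher and 1 lower of 12, NRF2 targets 9 and 1 of 12, and interleukin 6 genes 7 and 1 of 10. List medians were 0.87 for exporters, 0.28 for importers, 0.40 for regulators, 1.29 for copper, 0.93 for glucocorticoid, 2.57 for NRF2 and 1.80 for interleukin 6 genes, beside -0.16 for all genes and -2.02 for the 3 metallothioneins. With library size alone the median of all genes moved from -0.16 to -0.42. Astrocyte markers, of which 8 of 9 were lower in kidney, had a median of -5.47, neuron markers -11.47 with 7 of 7 lower, and choroid plexus markers -2.57 with 4 of 6 lower. All 7 proximal tubule and all 6 other nephron markers were higher in kidney, 4 of 5 blood markers were lower, and of 3 pancreatic enzymes tested 1 was higher and 1 lower.

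Mt1 and Mt2 moved together from library to library. After centring log2(CPM + 0.5) within each tissue, assay and genotype group the deviations of the 24 RNA-seq and Ribo-seq libraries are plotted for the pair. By the rule for naming genes, which centred within tissue and assay so that KO and WT libraries share a mean, Pearson's r of Mt1 with Mt2 was 0.928 over the 24 libraries. Mt2 was the gene most like Mt1 among 9987 candidates, followed by Gm45774 (0.910) and S100a13 (0.850). For Mt2 the nearest were Gm45774 (0.99), which overlaps it, Mt1 (0.928) and Sult1a1 (0.789). Mt3 was compared over the 12 brain libraries alone, where Gabarap, Nutf2-ps1 and Ndufa3 each gave 0.989 among 13680 candidates, while Mt1 gave 0.910 and ranked 285 and Mt2 gave 0.745 and ranked 1378. These libraries share assays, depth and tissues, and the values are descriptions across libraries, with no test. The 10 genes nearest to Mt3 had a median protein length of 108.5 residues, those nearest to Mt1 of 116 and those nearest to Mt2 of 293, beside 392 for all coding genes.

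Within groups, the libraries numbered 2 tended to be highest. Mt1 and Mt2 were each highest in library 2 in 9 of 10 groups, and Mt3 in 8 of 10. The median gene of 50 to 80 residues was highest in library 2 in 5 of 10 groups. In WT brain RNA-seq, library 2 also held 2394 CPM of blood markers, against 820 and 772 CPM in libraries 1 and 3. Blood markers in WT kidney RNA-seq stood at 293 CPM in library 2 against 211 and 183 CPM. In KO kidney RNA-seq, library 2 was highest for Mt1 and Mt2 and lowest for blood markers, at 134 CPM against 322 and 297 CPM.

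**Figure D4:**
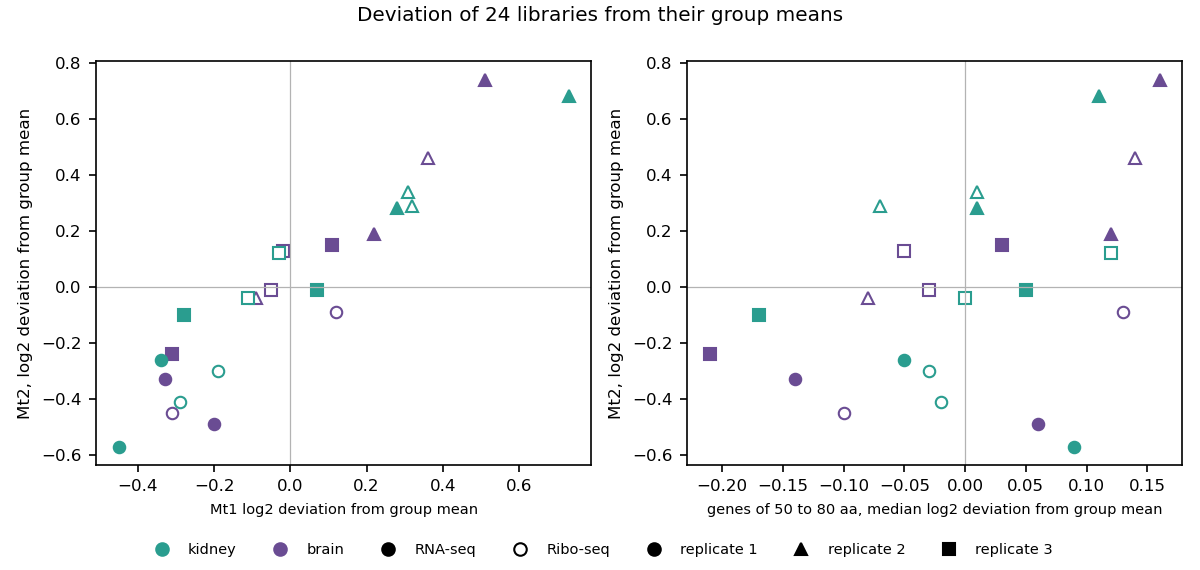
Deviation of each RNA-seq and Ribo-seq library from its group mean on the log2(CPM + 0.5) scale, for Mt2 against Mt1 (left) and for Mt2 against the median gene of 50 to 80 amino acids (right). Kidney is green and brain purple, filled symbols are RNA-seq, open ones Ribo-seq, and the marker gives the replicate number; Mt1 and Mt2 lie along a rising line, and most triangles (replicate 2) lie at the upper right of the left panel.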

How the data were processed

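The authors deposited a count table of reads per mouse transcript (GRCm38, mm 10, GENCODE M21); their notes name cutadapt, STAR, Subread and featureCounts without versions. The counts were not normalized, and a read that several transcripts share entered each, so a gene's transcripts are not independent. Of 142604 transcripts 141374 matched the annotation. The 30 libraries used form 10 groups of 3, and 28 columns of the table for human HEK293T cells, whose headers carry the titles of mouse samples, were not used. Levels are CPM of the column total, and for comparing genes CPM per kb.

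Differences were fitted over all transcripts with edgeR 4.0.16 (filterByExpr, TMM, quasi-likelihood, Benjamini-Hochberg) in R 4.3.3, separately for each comparison. Translation efficiency, disomes against monosomes and the tissue difference in response were interaction terms. Calls had an adjusted p under 0.05. All intervals are approximate, at 1.96 standard errors on either side, and can be too narrow with 3 libraries a group. DESeq2 1.42.0 was an alternative, with library size alone, 2 count filters, 1 transcript per gene, counts summed per gene, a replicate block, each library left out, and the principal transcripts, added after the data were seen. For some comparisons the edgeR fit was run on simulated counts with a fixed dispersion, in which 200 transcripts were changed by a log2 of 2. The simulation held no outlier library, so it does not show how the fits behave with the spread of these libraries.

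Replicate numbers paired libraries where every same-numbered pair of deviations correlated above 0.1. This held for the kidney assays (0.126 to 0.495), the WT brain assays (0.145 to 0.482), the disome genotypes (0.131 to 0.267) and KO RNA-seq of both tissues (0.164 to 0.325), and the labels do not state a pairing. Members and lists were chosen with earlier results of these data known. Named list genes are the called ones with the largest changes, at most 3 or 4 a list. The genes nearest to a member were ranked by Pearson's r of log2(CPM + 0.5), centred within tissue and assay, among genes with a mean of at least 1 CPM. Python 3.11.15 with biopython 1.88 was used for sequence counts.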

Additional observations from a re-analysis of the deposited data

Results flagged for a closer look

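Mt3 had more footprints per mRNA in WT kidney than in WT brain, by 2.33 on the log2 scale (standard error 0.58, edgeR adjusted p = 0.0099), and it is given here because the tissue effects on RNA and on footprints differed by that test. Among all transcripts 19.8% passed this test, 13394 of them higher in kidney and 5791 lower. The kidney side of Mt3 rests on few reads, 8, 33 and 11 in RNA-seq and 19, 18 and 10 in Ribo-seq. Its brain means were 76.4 CPM and 37.7 CPM. For Mt3-201 the value was 1.93 (edgeR adjusted p = 0.037). It passed in all 19 alternatives that gave a value, between 1.93 and 3.18, with adjusted p up to 0.0442, and was not tested where each library needed at least 10 counts. Neuron markers, near 0 in kidney, had median log2 differences of -11.47 in RNA-seq and -9.78 in Ribo-seq and a median term of 2.64, blood markers had a median term of 2.76, and the part of either was not tested. Astrocyte markers were mixed, with a term of -0.92 for Aldh1l1.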

How the results depend on the processing

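Under the alternatives 572 of the members' log2 fold changes kept direction and side of the threshold, 11 gained a call, 3 lost it and 25 turned in sign. The number of members called went from 0 to 1 in kidney RNA-seq with DESeq2 and to between 0 and 2 with 1 library left out. In kidney Ribo-seq it went to 1 with DESeq2, with at least 1 count in any library and with the replicate block (Mt2, 0.60, edgeR adjusted p = 0.0195), and to between 0 and 1 with 1 library left out. It went to 1 in brain Ribo-seq with at least 1 count, to 0 for WT tissue TE with at least 10 counts in every library, which removed Mt3, and to 1 for the Ribo-seq response with at least 1 count and with the block (Mt2, 1.15, edgeR adjusted p = 0.019). The block changed no other call of a member. In kidney Ribo-seq and the response the libraries share only a number. Brain RNA of Mt2 reversed to -0.04 with library size alone, -0.05 with 1 transcript per gene and -0.02 with counts summed per gene. With 1 library left out, directions turned for brain RNA (Mt1 -0.09 to 0.44, Mt2 -0.16 to 0.56, Mt3 -0.06 to 0.42), kidney RNA (Mt3 -0.10 to 1.17), kidney Ribo-seq (Mt1 -0.10 to 0.27, Mt3 -0.42 to 0.06), WT tissue TE (Mt1 -0.10 to 0.84, Mt2 -0.09 to 0.93) and the RNA response (Mt3 -0.34 to 0.90). The cause was not tested. Calls over all transcripts ranged with the settings from 0 to 540 in kidney RNA-seq (7), from 0 to 23 in brain RNA-seq (12), from 786 to 9936 in kidney Ribo-seq (5838), from 0 to 1573 in brain Ribo-seq (28), from 13 to 278 in disomes (77), from 0 to 4129 for kidney TE, from 0 to 18 for brain TE, from 0 to 209 for disomes against monosomes, from 16499 to 62123 and from 14413 to 64827 for WT tissues in RNA-seq (56852) and Ribo-seq (58777), from 7153 to 23031 for their TE (19185), from 0 to 105 for the RNA response (1) and from 4 to 437 for the Ribo-seq response (68). The low ends of 16499, 14413 and 7153 came from 1 transcript per gene, and those of 786 and 13 from counts summed per gene. Both settings count 1 feature per gene and not all transcripts, so these counts are not on the scale of the main fits. Leaving out KO kidney RNA-seq library 1 gave 12466, 16330 and 6452 calls for kidney RNA-seq, kidney TE and the RNA response. Leaving out KO kidney Ribo-seq library 3 gave 285 for kidney Ribo-seq. The block gave 80 calls in brain Ribo-seq. The share of higher calls was 61.2% in kidney Ribo-seq, 40.3% in disomes and 38.2% for the Ribo-seq response, and 38.2%, 26.7% and 24.5% with library size alone. Mt3 in kidney rested on 6 to 34 reads a library, and the members in disomes on 0 to 61.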
